A study of Caenorhabditis elegans with 14 samples.

Results

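The genes described here are 36 genes of synaptic transmission in Caenorhabditis elegans, and the data are their mRNA levels in N2 and CB4856 worms at 3 ages. They code for the proteins that release synaptic vesicles, for the calcium and potassium channels that control release, for vesicle transport and recycling, for the enzymes and transporters that make and load the transmitters, and for neuropeptide processing. Members were all array elements (60-mer probes) whose gene symbol, or whose coding sequence (CDS) name on the array, was one of the 36. Of the 36 genes, 34 were paired with an element, and together they had 74 of the 22490 worm elements on the array. 19 genes had several elements, 18 genes were matched through the CDS name alone, and the tables used here paired no element with unc-17 and cha-1, which were not analysed here.

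Each array carried RNA of whole worms of both wild types, N2, the laboratory strain from Bristol, and CB4856, a wild strain from Hawaii, labelled with different dyes. There were 5 arrays of juveniles aged 40 hr (t1), 4 of worms labelled reproductive, aged 96 hr (t2), and 5 of worms labelled senescent, aged 214 hr (t3). All populations were started from hermaphrodites, occurring males were removed, and worms of several dishes, kept on E. coli OP50 at 24 degrees, were pooled into a sample. The t1 worms were harvested before any treatment, whereas t2 and t3 worms had spent a period on FUDR, a drug that stops reproduction, and had then been moved off it, so that age and FUDR cannot be told apart between t1 and the later ages. The labels call the t1 worms late L3, and the methods of the study call them late L4. N2 carried Cy3 in replicates 1 to 3 of an age and Cy5 in replicates 4 and 5 (replicate 4 at t2), and values listed below follow that order of replicates.

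At a chemical synapse a nerve impulse opens calcium channels, and a vesicle docked by the SNARE proteins fuses with the membrane and empties its transmitter into the cleft. The membrane is then taken back up, formed into vesicles, and refilled by transporters specific to each transmitter. Neuropeptides follow a separate route, in which precursors are cut and trimmed inside dense core vesicles before they are released. Loss of many of the genes named here makes worms uncoordinated, slow, or defective in egg laying, and most of these genes were found in C. elegans through such mutants.

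Levels are normalized log2 intensities, in which 1 unit is a 2-fold difference. A level was counted as above background when the spot mean exceeded the local background by 2 standard deviations of that background. Median spot intensities were 191 to 303 per array and dye over a median background of 163 to 183, and 39.3% to 63% of all elements were above background. Of the 74 member elements, 29 (39.2%) were above background in at least 14 of the 28 channels (14 arrays with 2 dyes), called well measured below, compared with 52.5% of all worm elements. A further 21 were above background in some channels and 24 (32.4%, against 23.9% of all elements) in none. 24 genes had an element of the first kind, 6 had at best one of the second, and the other 4 (unc-2, unc-46, eat-4, and unc-104) were never above background. Elements of one gene often lay on both sides of the background, and levels of different elements were not compared with each other. Whole worms were measured, so that fewer neurons and less RNA per neuron cannot be told apart in any result.

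One array stood apart. The mean intensities of t3 replicate 5 had rank correlations of 0.86 to 0.87 with the other t3 arrays, which correlated with each other at up to 0.97, and among the members the unc-11 element well measured for C32E8.10f was at 7.05 there against 9.53 to 10.7 on the other t3 arrays. Without it, 12 member elements were called from t2 to t3 in place of 14, and 29 from t1 to t3 in place of 27. Elements called with the same strain difference at both other ages had that direction on 81.6% to 98.5% of elements per array, so that every array followed its strain labels.

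Age moved these genes far more than strain did. From t1 to t2, 6 member elements rose and 7 fell at an adjusted p under 0.05, which is 17.6% of the members, where 33.7% of all worm elements were called (18.4% higher and 15.3% lower). From t2 to t3 no member element rose and 14 fell, 18.9% of the members, where 19.7% of all elements were called (9.42% higher and 10.3% lower). Over the whole span from t1 to t3, 8 rose and 19 fell, 36.5% of the members, where 43.5% of all elements were called (23.9% higher and 19.6% lower). Among the 29 well measured elements, 5 rose and 7 fell from t1 to t2 (28.7% and 21.3% of all well measured elements did), 0 and 13 from t2 to t3 (14.7% and 16.2%), and 4 and 16 from t1 to t3 (36.5% and 28.4%). The arrays of the ages did not overlap for 10 of the 13, 13 of the 14, and 20 of the 27 called elements. Over all elements, called or not, 31.5%, 17.7%, and 32.7% did not overlap. The 2 sets of figures are not comparable, because a call itself favours arrays that do not overlap. The median log2 change of the 74 elements was -0.03, -0.06, and -0.06 in these comparisons, against 0.03, 0.01, and 0 for all elements. Over all 74 elements, the members were thus called less often than all elements from t1 to t2 and about as often from t2 to t3. The calls from t2 to t3 were all in one direction. Among well measured elements, a larger share of the members fell from t2 to t3, 13 of 29 against 16.2%, and a smaller share rose, 0 against 14.7%. These shares were described and not tested. In all, 29 elements of 20 genes were called in at least one age comparison, and all 3 comparisons use the same arrays.

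**Figure D1:**
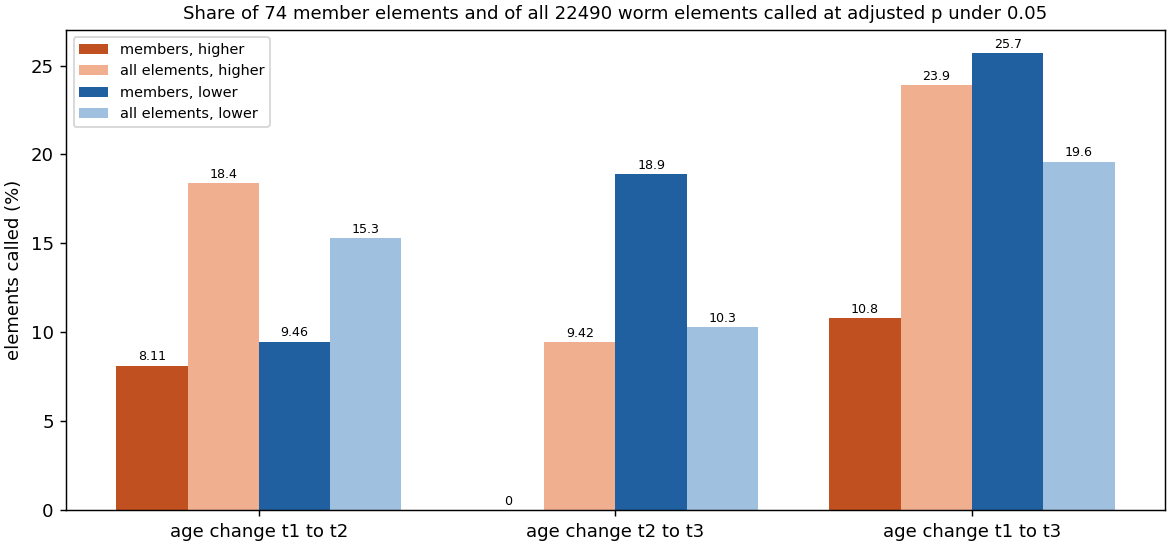
Percent of the 74 member elements (dark bars) and of all 22490 worm elements (light bars) called higher or lower at an adjusted p under 0.05, for each age comparison. From t2 to t3 the members were called lower in 18.9% and higher in 0%, against 10.3% and 9.42% of all elements.

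The direction of the change from t2 to t3 depended on how arrays were scaled to each other. With quantile normalization, as in the methods of the study, the 14 called elements changed by -1.66 to -0.38. When only the median of each array was set equal, the same elements changed by -1.12 to -0.42 while the median of all elements changed by -0.15, and 13 member elements fell and 1 rose, of which 6 were among the 14. Without any scaling between arrays the median of all elements rose by 0.29, 95.5% of all calls were higher, and 7 member elements were called higher and none lower, none of them among the 14. Under that setting the 14 elements changed by -0.68 to 0.02 and were not called. Without scaling, 4 of the 13 elements called from t1 to t2 and 14 of the 27 called from t1 to t3 were still called. In each of the 3 settings all 14 lay below the median of all elements. The 14 were picked for their fall with quantile normalization on the same arrays, so this position is no separate support for the falls. Array brightness and age cannot be told apart in these data, and the falls below are falls relative to the other elements.

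**Figure D2:**
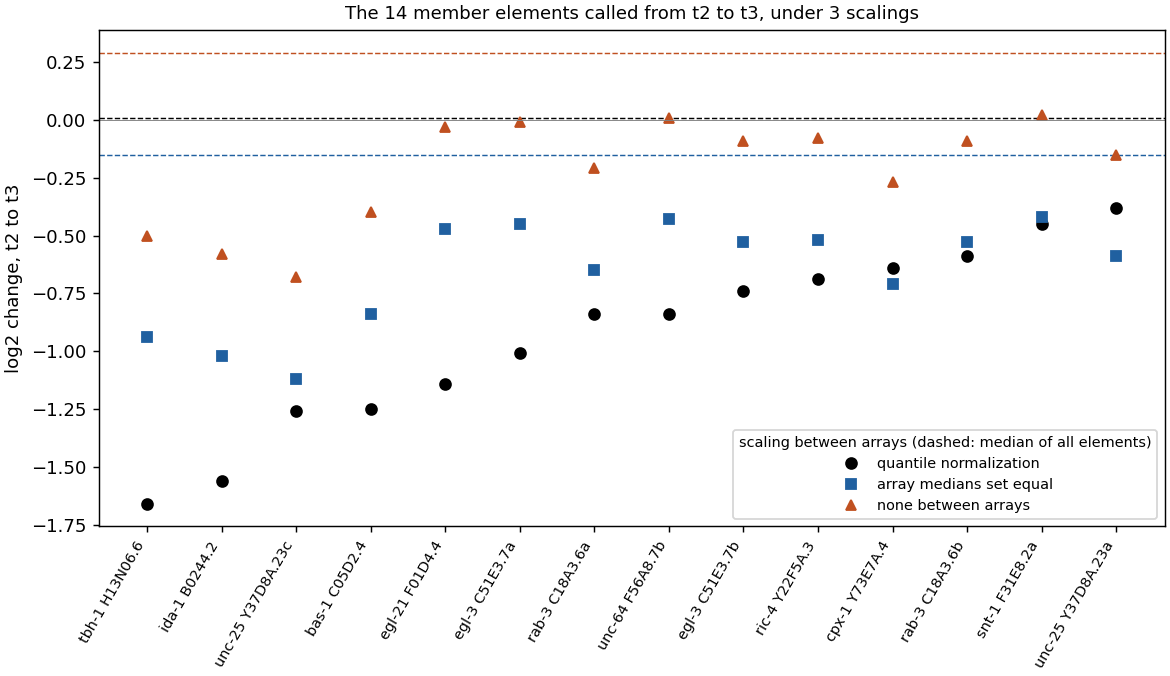
Log2 change from t2 to t3 of the 14 member elements called in that comparison (x axis, gene and CDS), with quantile normalization (circles), with array medians set equal (squares), and with no scaling between arrays (triangles). Dashed lines give the median change of all elements, 0.01, -0.15, and 0.29, and all 14 elements lie below the line of their own setting. The 14 were picked by their calls with quantile normalization on the same arrays.

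All 3 genes of neuropeptide processing and dense core vesicles fell with age. ida-1 codes for a receptor-type tyrosine phosphatase-like protein of dense core vesicles, and it had the largest fall of the members. Its mean log2 intensity on the arrays was 12.41, 11.85, 10.4, 11.97, and 12.06 at t1, then 10.86, 10.57, 9.29, and 10 at t2, and 8.61, 8.77, 8.56, 9.13, and 8.03 at t3. The t1 and t2 arrays overlapped through t1 replicate 3, and every t3 array was below every earlier one. ida-1 fell by 1.56 ± 0.40 (SE) from t1 to t2 (adjusted p = 0.0076) and by 1.56 ± 0.40 from t2 to t3 (adjusted p = 0.015). Both calls were lost when arrays with the same number in the labels were averaged (-1.42 and -1.48). The first was also lost without both number 1 arrays of t1, and the second without t2 replicate 1, with array medians set equal (-1.02), and without scaling (-0.58). From t1 to t3 ida-1 fell by 3.12 ± 0.37, or 8.68-fold (adjusted p = 1.7e-05), and the change was -3.27 in N2 and -2.97 in CB4856.

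egl-3 codes for a proprotein convertase that cuts neuropeptide precursors, and both of its elements fell. The element for C51E3.7b was at 9.65, 9.09, 9.67, 9.29, and 9.33 at t1, at 8.15, 8.19, 9.04, and 8.52 at t2, and at 7.61, 7.83, 7.87, 7.69, and 7.68 at t3. None of the 3 ages overlapped, and it fell by 0.93 ± 0.17 and then by 0.74 ± 0.17 on the log2 scale (adjusted p = 9e-04 and 0.0094). The first fall of this egl-3 element lost its call with array medians set equal (-0.43), without scaling (-0.67), and on spots with flag code 3 alone (-0.46). The second fall lost it with array medians set equal (-0.53), without scaling (-0.09), and when arrays of one number were averaged (-0.76). The element for C51E3.7a was at 10.47, 11.06, 10.72, 9.7, and 10.54 at t1, at 9.73, 10.11, 10.04, and 9.91 at t2, and at 8.45, 9.15, 9.45, 9.13, and 8.49 at t3. Its t1 and t2 arrays overlapped and all t3 arrays were lower. It did not pass the test from t1 to t2 (-0.55 ± 0.26, adjusted p = 0.13), but it fell by 1.01 ± 0.26 from t2 to t3 (adjusted p = 0.015). From t1 to t3 the elements fell 3.18-fold and 2.96-fold. The egl-3 element for C51E3.7a lost its calls from t2 to t3 and from t1 to t3 with array medians set equal (-0.45 and -0.61) and without scaling (-0.01 and -0.41), and the other lost that from t1 to t3 without scaling (-0.76).

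egl-21, which codes for the carboxypeptidase E that trims the cut peptides, was at 10.68, 11.18, 11.41, 11.07, and 11.36 at t1 and at 10.75, 11.07, 11.09, and 10.63 at t2. At t3 it split into arrays near the earlier levels, 10.68 and 10.59 in replicates 2 and 3, and arrays more than 1 unit lower, at 9.06, 9.32, and 9.1. The fall from t2 to t3 was 1.14 ± 0.33 (adjusted p = 0.03), and it lost its call without any one of 6 of the 9 arrays, when arrays of one number were averaged, with arrays of these ages alone, and under both other scalings (-0.47 with equal medians and -0.03 without scaling). The fall from t1 to t3 was 1.39 ± 0.32 (adjusted p = 0.0026), and egl-21 lost this call with array medians set equal (-0.46) and without scaling (-0.26).

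**Figure D3:**
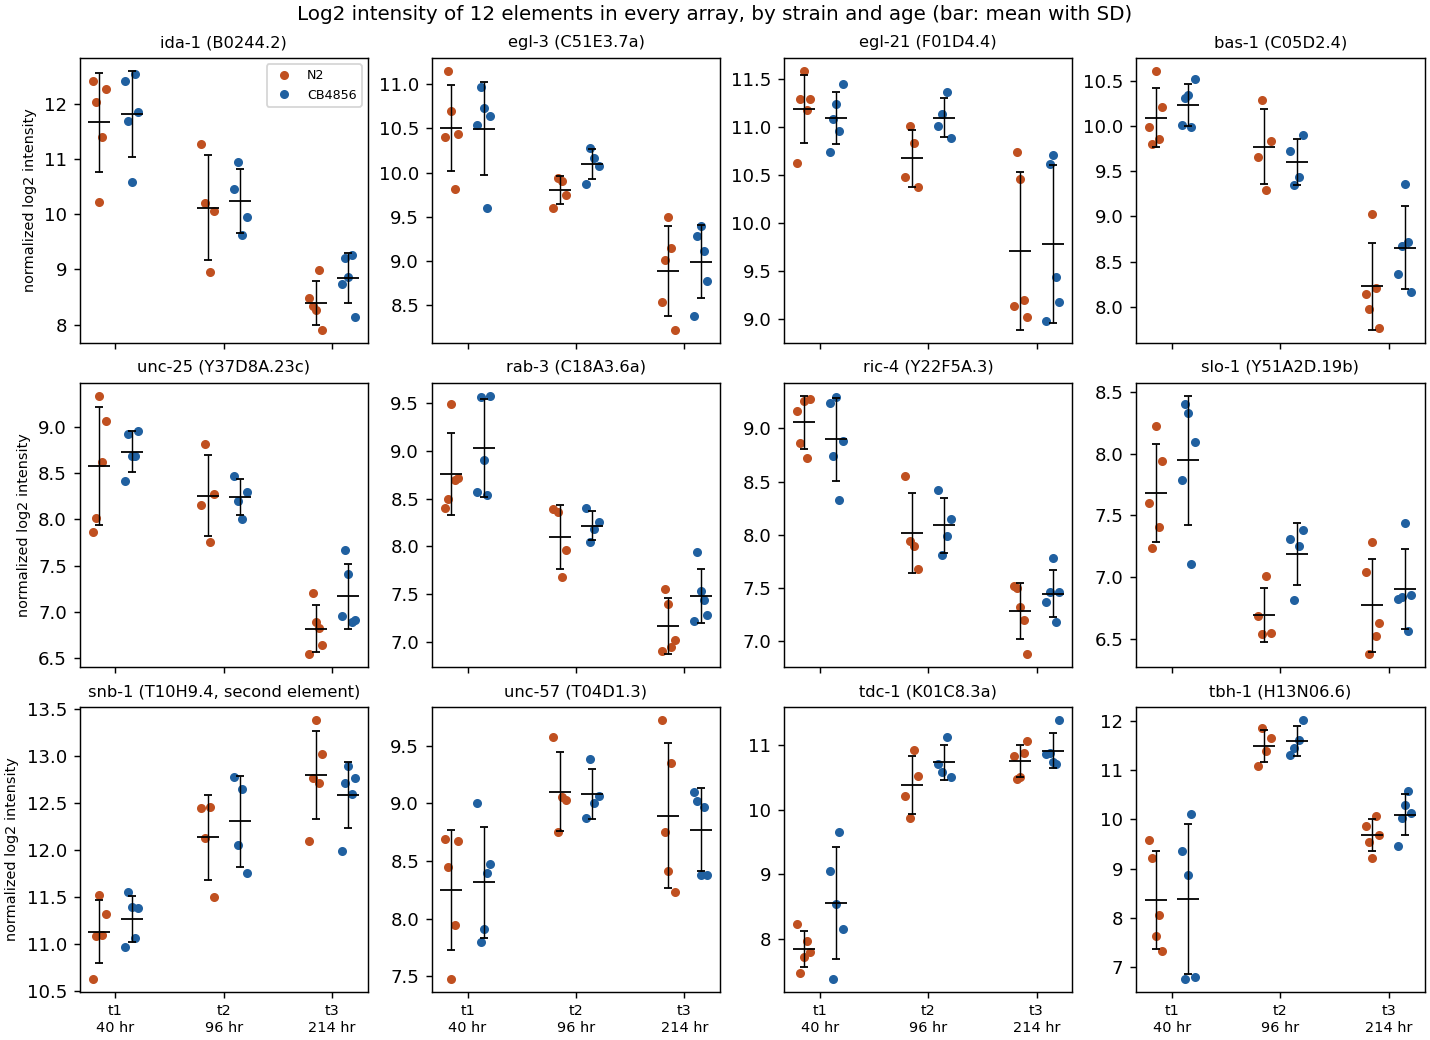
Normalized log2 intensity (y axis) of 12 member elements in N2 (orange) and CB4856 (blue) on every array at t1, t2, and t3, with the mean and SD over arrays (5, 4, and 5) in black. The 8 elements of the upper rows have lower means at t3 than at t1, although t3 arrays of slo-1 and egl-21 reach the t1 range. The means of snb-1 (its second element) and tdc-1 are higher at t3, unc-57 overlaps, and tbh-1 peaks at t2.

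The monoamine genes went in opposite directions. bas-1 codes for the aromatic amino acid decarboxylase of serotonin and dopamine synthesis. Its levels were 10, 10.05, 10.48, 9.93, and 10.36 at t1, then 9.69, 9.82, 9.37, and 9.87 at t2, and finally 8.25, 8.32, 9.19, 8.47, and 7.96 at t3. The ages did not overlap, although the first step did not pass the test (-0.48 ± 0.21, adjusted p = 0.11). bas-1 fell by 1.25 ± 0.21 from t2 to t3 (adjusted p = 0.0013), and 3.31-fold from t1 to t3 (adjusted p = 1.2e-05), and without scaling between arrays neither fall of bas-1 was called (-0.40 and -0.67).

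tdc-1 and tbh-1 are the enzymes that make tyramine from tyrosine and octopamine from tyramine, and besides a few neurons they are known to be expressed in the sheath cells of the gonad. Unlike bas-1, both rose after t1. The tdc-1 element for K01C8.3a was at 8.64, 7.44, 8.14, 8.82, and 7.99 at t1, at 10.46, 10.22, 11.02, and 10.51 at t2, and at 10.84, 10.68, 10.62, 10.79, and 11.22 at t3. All later arrays were above all t1 arrays. It rose 5.09-fold from t1 to t2 (2.35 ± 0.25, adjusted p = 1e-05) and changed by 0.28 ± 0.25 from t2 to t3 (adjusted p = 0.51). The second element, for K01C8.3b, was at 6.1, 6.22, 6.23, 6.48, and 6.32 at t1, at 6.77, 6.52, 6.65, and 6.42 at t2, and at 6.3, 6.55, 6.41, 6.35, and 6.64 at t3. It was above background in 0 of 10 channels at t1 and in 1 of 8 at t2, and the ages overlapped. It was called from t1 to t2 with a log2 change of 0.32 (adjusted p = 0.023). The bound of at least 1.07-fold rests mostly on channels at background and is no firm minimum. This element lost that call without t1 replicate 1, t2 replicate 1, or t2 replicate 3 and under both other scalings.

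tbh-1 rose and then fell. It was at 9.46, 7.99, 8.25, 9.09, and 7.06 at t1, at 11.2, 11.65, 11.51, and 11.84 at t2, and at 9.66, 9.79, 9.75, 10.33, and 9.92 at t3. The 3 ages were apart on every array. The rise from t1 to t2 was 9.05-fold (3.18 ± 0.38, adjusted p = 2.6e-05), the largest change of any member element in the age comparisons, and the fall from t2 to t3 was 3.15-fold (1.66 ± 0.38 on the log2 scale, adjusted p = 0.0083). Without scaling between arrays the latter change was -0.50 and not called. From t1 to t3 tbh-1 was still 2.87-fold higher (adjusted p = 0.0034). At t1 the strain ratio of tbh-1 ranged from -2.45 to 2.05 between arrays and was not called.

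The spread of tbh-1 and tdc-1 at t1 ran along the replicate numbers of the labels. Replicates 1 and 4, the arrays that share number 1 in the labels, had the highest levels of both genes at t1, and they also had the highest mean level of 12 oocyte and early embryo markers (14 elements), 10.91 and 10.69 against 9.73 to 9.84 on the other t1 arrays. The same replicates were also highest at t1 for 9 intestine markers (11.91 and 11.71 against 10.84 to 11.11) and, by less, for 8 sperm markers (13.86 and 13.73 against 12.91 to 13.56). Of those 14 marker elements 13 rose from t1 to t2, with a median log2 change of 2.25, and their summed intensity per channel was 10600 to 60300 at t1, 112000 to 174000 at t2, and 99200 to 188000 at t3. Each of the 14 was above background in some channel at every age. Of 14 intestine elements 7 rose and 2 fell from t1 to t2, and of 9 sperm elements none rose and 9 fell. The part of these tissues or of the surrounding gonad in the tdc-1 and tbh-1 changes was not tested. When both number 1 arrays of t1 were left out, a choice made after the data had been seen, 14 member elements were called from t1 to t2 and 30 from t1 to t3, and tdc-1 and tbh-1 changed by 2.70 and 3.78 from t1 to t2, both still called.

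The other monoamine genes were dim. tph-1 (tryptophan hydroxylase), cat-2 (tyrosine hydroxylase), and cat-1 (the vesicular monoamine transporter) had 5 elements, none of them well measured and none called.

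Of the 4 genes analysed for GABA and glutamate synthesis and loading, only unc-25 was measured well. It codes for glutamate decarboxylase, which makes GABA. Its element for Y37D8A.23c was at 8.13, 8.47, 9.02, 8.65, and 9.01 at t1, at 8.32, 8.51, 7.88, and 8.29 at t2, and at 6.74, 7.43, 7.15, 6.86, and 6.78 at t3. Arrays of t1 and t2 overlapped, and all t3 arrays were lower. unc-25 did not pass the test from t1 to t2 (-0.41 ± 0.20, adjusted p = 0.15), but fell 2.39-fold from t2 to t3 (adjusted p = 0.00085) and 3.17-fold from t1 to t3 (adjusted p = 1.1e-05). The element for Y37D8A.23a was at 6.15, 6.53, 6.64, 6.28, and 6.48 at t1, at 6.56, 6.52, 6.47, and 6.4 at t2, and at 6.05, 6.18, 6.14, 6.12, and 6.04 at t3. It fell by 0.38 from t2 to t3 (adjusted p = 0.011), with no overlap, but it was above background in 3 of 10, 1 of 8, and 0 of 10 channels. Its bound of at least 1.12-fold rests mostly on channels at background and is no firm minimum. The call was lost when arrays of one number were averaged. The element for Y37D8A.23b was never above background. unc-47 (the vesicular GABA transporter) was above background in 1 channel, while unc-46 (which sorts that transporter to vesicles) and eat-4 (the vesicular glutamate transporter) never was. None of these 3 genes was called.

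**Figure D4:**
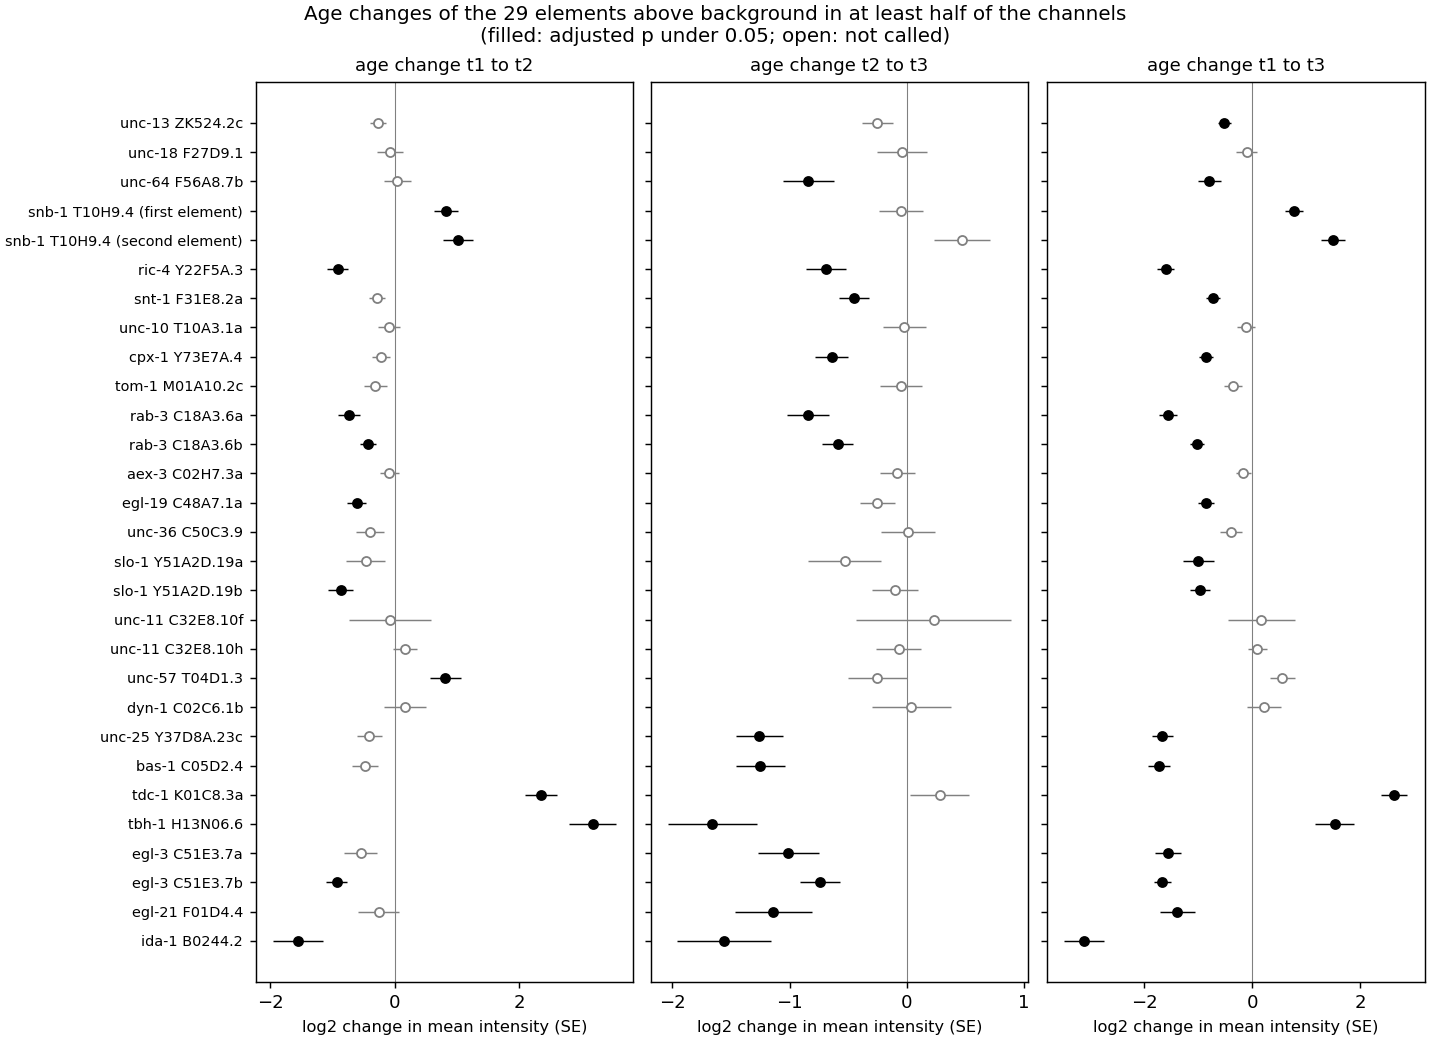
Log2 change of the mean intensity with its SE (x axes) for the 29 member elements above background in at least 14 of 28 channels (rows, gene and CDS), for the 3 age comparisons. Filled points passed an adjusted p under 0.05: snb-1, tdc-1, tbh-1, and unc-57 lie to the right in the first panel, and all filled points lie to the left in the second.

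Of the SNARE proteins, ric-4 and unc-64 fell while snb-1 rose. ric-4 codes for SNAP-25, and its levels were 9.2, 8.8, 9.28, 8.53, and 9.08 at t1, then 8.49, 7.88, 7.94, and 7.92 at t2, and finally 7.45, 7.48, 7.55, 7.19, and 7.17 at t3. No 2 ages overlapped. Within scan session 2, however, ric-4 changed by -0.04 from t1 to t2, against -1.34 to -1.06 within the other sessions. ric-4 fell by 0.92 ± 0.17 from t1 to t2 (adjusted p = 0.00076) and by 0.69 ± 0.17 from t2 to t3 (adjusted p = 0.012), in all 3.05-fold (adjusted p = 3e-06). Both single steps of ric-4 lost their call with array medians set equal (-0.53 and -0.52) and without scaling (-0.77 and -0.08), while the change from t1 to t3 was called under both.

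unc-64 codes for syntaxin. Its element for F56A8.7b was at 8.72, 9.44, 9.77, 8.67, and 9.22 at t1, at 9.19, 9.15, 9, and 9.46 at t2, and at 8.18, 8.34, 8.88, 8.26, and 8.17 at t3. The change from t1 to t2 was not called (0.04 ± 0.22, adjusted p = 0.94), and all t3 arrays were below all t2 arrays. The fall from t2 to t3 was 0.84 ± 0.22 (adjusted p = 0.018) and from t1 to t3 0.80 ± 0.21 (adjusted p = 0.0066), but the first call was lost without t2 replicate 4, and both were lost when arrays of one number were averaged. With array medians set equal these changes of unc-64 were -0.43 and -0.02, and without scaling between arrays 0.01 and 0.18, none of them called. The element for F56A8.7a was dim and not called.

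snb-1, which codes for synaptobrevin, had 2 elements for T10H9.4 and both rose. The first snb-1 element was at 10.89, 10.94, 10.62, 11.09, and 10.88 at t1, at 12.15, 11.42, 11.82, and 11.45 at t2, and at 11.54, 11.5, 12.26, 11.45, and 11.53 at t3. The second was at 10.8, 11.32, 11.45, 11.08, and 11.35 at t1, at 12.61, 12.09, 12.55, and 11.62 at t2, and at 12.05, 12.73, 13.13, 12.65, and 12.89 at t3. On both elements every later array was above every t1 array. From t1 to t2 snb-1 rose by 0.82 ± 0.19 and by 1.02 ± 0.24 (adjusted p = 0.0034 and 0.0044), and from t1 to t3 by 0.77 ± 0.17 and 1.49 ± 0.22 (adjusted p = 0.0026 and 0.00011). From t2 to t3 the changes of -0.05 and 0.47 were not called. These were the only well measured elements of the release machinery that rose, and without scaling between arrays the rise of snb-1 from t1 to t2 was not called on either element while that from t1 to t3 was called on both.

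rab-3, the small GTPase of synaptic vesicles, fell at both steps on both elements. The element for C18A3.6a was at 8.48, 9.03, 9.19, 8.61, and 9.15 at t1, at 8.4, 8.2, 7.93, and 8.11 at t2, and at 7.06, 7.75, 7.47, 7.19, and 7.15 at t3, with no overlap between ages. It fell by 0.74 ± 0.18 and by 0.84 ± 0.18 (adjusted p = 0.0053 and 0.0054), 2.98-fold in all, and both steps lost their call with array medians set equal (-0.38 and -0.65) and without scaling (-0.62 and -0.21). The element for C18A3.6b was at 7.61, 7.94, 7.96, 7.52, and 7.92 at t1, at 7.57, 7.05, 7.51, and 7.3 at t2, and at 6.84, 6.81, 7, 6.57, and 6.63 at t3. Its t1 and t2 arrays overlapped, and it fell by 0.43 ± 0.13 and by 0.59 ± 0.13 (adjusted p = 0.023 and 0.008). The first of these falls lost its call when any of 5 of the 9 arrays was left out, and in the second scan session the change was 0.05. Both falls on this rab-3 element lost their call when arrays of one number were averaged (-0.49 and -0.53) and without scaling (-0.58 and -0.09). aex-3, which codes for the exchange factor of RAB-3, was above background in 16 of 28 channels on its well measured element and was not called, with -0.17 ± 0.14 from t1 to t3.

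cpx-1 (complexin, a clamp on the SNARE complex) and snt-1 (synaptotagmin, the calcium sensor of release) fell late. cpx-1 was at 7.06, 7.41, 7.44, 7.01, and 7.14 at t1, at 6.58, 7.09, 7.19, and 7.08 at t2, and at 6.09, 6.43, 6.34, 6.49, and 6.38 at t3. It changed by -0.22 ± 0.14 from t1 to t2 (adjusted p = 0.25) and fell by 0.64 ± 0.14 from t2 to t3 (adjusted p = 0.0056), where it was above background in 4 of 10 channels. The snt-1 element for F31E8.2a was at 7.73, 7.18, 7.42, 7.42, and 7.72 at t1, at 7.11, 7.1, 7.44, and 7.2 at t2, and at 6.88, 6.97, 6.84, 6.63, and 6.47 at t3. All t3 arrays were below the earlier ones. It fell by 0.45 ± 0.13 from t2 to t3 (adjusted p = 0.03), but lost that call without any one of 4 of the 9 arrays and was at 0.02 without scaling between arrays. From t1 to t3 both genes fell with no overlap of arrays, cpx-1 1.82-fold and snt-1 1.66-fold (adjusted p = 0.00011 and 0.00032).

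The priming and docking factors changed little. unc-13, which primes vesicles, had 6 elements, of which only one, for ZK524.2c, was well measured, at 7.28, 7.29, 7.49, 7.16, and 7.52 at t1, at 6.97, 6.93, 7.26, and 7.16 at t2, and at 6.87, 6.85, 7.18, 6.79, and 6.46 at t3. Its ages overlapped, and it fell by 0.52 ± 0.12 from t1 to t3 (adjusted p = 0.0034). An unc-13 element for ZK524.2a was called higher from t1 to t3 with a log2 change of 0.16, but it was above background in no channel, as was the second snt-1 element, for F31E8.2b, which was called lower with -0.18. Of unc-18 (the syntaxin-binding protein), unc-10 (RIM), and tom-1 (tomosyn, an inhibitor of release), none was called on any of their 8 elements. Their changes from t1 to t3 on the well measured element were -0.11 ± 0.20 for unc-18, -0.12 ± 0.17 for unc-10, and -0.36 ± 0.17 for tom-1. unc-31, the factor for dense core vesicle release known as CAPS, was at 6, 6.21, 6.09, 6.02, and 6.13 at t1, at 6.05, 6.07, 6.42, and 6.34 at t2, and at 6.62, 6.33, 6.5, 6.4, and 6.36 at t3, and it was above background in 0 of 10 channels at t1 and in 4 of 10 at t3. It was called higher from t1 to t3 (0.35, adjusted p = 0.0048), which gives a bound of at least 1.02-fold.

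Both channel genes that were called fell. slo-1 codes for the BK potassium channel, which limits release. The element for Y51A2D.19b was at 7.7, 7.82, 8.27, 7.26, and 8.01 at t1, at 7, 6.68, 7.13, and 6.97 at t2, and at 6.94, 6.61, 7.37, 6.55, and 6.75 at t3. All t2 arrays were below all t1 arrays, and t3 replicate 3 was above the lowest t1 array. slo-1 fell by 0.87 ± 0.20 from t1 to t2 on this element (adjusted p = 0.0041), and its change of -0.10 ± 0.20 from t2 to t3 was not called. The slo-1 element for Y51A2D.19a was at 7.21, 8.04, 8.29, 7.08, and 7.15 at t1, at 7.08, 6.9, 7.14, and 7.22 at t2, and at 6.53, 6.54, 7.37, 6.58, and 5.74 at t3. Its ages overlapped, and it was called from t1 to t3 only, 2-fold lower (adjusted p = 0.013), a call lost when arrays of one number were averaged and without scaling. Both slo-1 elements for Y51A2D.19c were never above background.

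egl-19 codes for the L-type calcium channel, which is found in muscle as well as neurons. Its element for C48A7.1a was at 7.23, 7.57, 7.4, 7.2, and 7.33 at t1, at 6.42, 6.68, 7.17, and 6.7 at t2, and at 6.25, 6.51, 6.87, 6.52, and 6.29 at t3. Later arrays were all below t1, and t2 and t3 overlapped. The fall from t1 to t2 was 0.61 ± 0.15 (adjusted p = 0.0073) and from t1 to t3 0.86 ± 0.15 (adjusted p = 0.00029), while the second egl-19 element, for C48A7.1b, was dim and not called. The egl-19 call from t1 to t2 was lost when arrays of one number were averaged (-0.56, adjusted p = 0.066) and without scaling (-0.73, adjusted p = 0.054). unc-36 (the channel's alpha2-delta subunit) was above background in all channels and not called, with -0.40 ± 0.21 from t1 to t3. unc-2, the presynaptic calcium channel, could not be followed because its 2 elements stayed at background.

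Muscle markers moved in the same direction as egl-19 and slo-1. Of 16 elements of 10 body wall muscle genes, 14 fell from t1 to t2, 10 from t2 to t3, and 16 from t1 to t3, with none higher, where 15.3%, 10.3%, and 19.6% of all elements fell. Their summed intensity per channel was 70900 to 121000 at t1, 34600 to 80500 at t2, and 17900 to 40200 at t3, and each was above background in some channel at every age. Neither egl-19 nor slo-1 was called from t2 to t3. Epidermis markers also fell. Of 8 elements of 8 epidermis genes, 6 fell from t1 to t2, 1 from t2 to t3, and 7 from t1 to t3, with none higher. At each age 1 of these 8 was above background in no channel. The part of muscle or epidermis in the falls of these channel genes was not tested. Of 17 elements of 7 neuron-wide genes outside the members (rgef-1, unc-119, ric-19, sng-1, unc-33, unc-44, and maco-1), 2 rose and 3 fell from t1 to t2, none rose and 2 fell from t2 to t3, and 3 rose and 4 fell from t1 to t3, where 18.4%, 9.42%, and 23.9% of all elements rose. Their summed intensity was 3610 to 5960, 3050 to 3720, and 2260 to 3960, and 8, 7, and 5 of the 17 were never above background at the 3 ages. The largest of their changes was that of unc-44, an ankyrin, which fell by 2.46 ± 0.15 from t1 to t3 (adjusted p = 3.7e-08), whereas unc-119 rose by 0.79 ± 0.22 (adjusted p = 0.01). These 2 neuron-wide genes moved in opposite directions.

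In vesicle recycling, the changes that passed on elements above background in some channel were rises. unc-57 codes for endophilin, which bends membrane during endocytosis, and it was at 8.85, 8.13, 7.69, 8.17, and 8.57 at t1, at 9.22, 9.07, 9.02, and 9.04 at t2, and at 9.41, 8.89, 8.4, 9.16, and 8.31 at t3. The t2 arrays lay close together above all t1 arrays, and t3 overlapped both. unc-57 rose by 0.81 ± 0.25 from t1 to t2 (adjusted p = 0.022), a call that was lost without t1 replicate 3 or t2 replicate 1. unc-26, the phosphatase synaptojanin that works with endophilin, had 2 elements that were above background in 0 of 10 channels at t1 and in 8 and 7 of 10 at t3. The element for JC8.10a was at 6.43, 6.15, 6.17, 6.41, and 6.27 at t1 and at 7.23, 7.53, 6.52, 6.68, and 6.66 at t3. The one for JC8.10b was at 6.39, 6.27, 6.18, 6.03, and 6.19 at t1 and at 6.65, 7.04, 6.48, 6.85, and 6.56 at t3. The t1 and t3 arrays did not overlap on either. Both unc-26 elements were called higher from t1 to t3 (0.64 and 0.50, adjusted p = 0.02 and 0.0042), with bounds of at least 1.2-fold and 1.11-fold, and the first lost its call without t3 replicate 1 and when arrays of one number were averaged.

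Of the remaining transport and recycling genes, no element above background in any channel was called. dyn-1, the dynamin that pinches vesicles off, was at 8.43 to 9.74 at t1, at 8.66 to 9.79 at t2, and at 8.52 to 9.76 at t3 on its well measured element, for C02C6.1b. unc-11 (the clathrin adaptor AP180) had 9 elements, 2 of them well measured, and none was called. The well measured unc-11 element for C32E8.10f changed by 0.16 ± 0.62 from t1 to t3, an error that leaves a 2-fold change in either direction undetectable. unc-104, the kinesin that carries vesicle precursors along axons, had 5 elements, all at background in every channel, and 1 of them was called lower from t1 to t3 with a log2 change of -0.30.

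Few member elements were called for strain. The study reports a longer mean lifespan for N2 than for CB4856. At harvest the strains therefore differed in physiological age (age divided by mean lifespan), more so at older ages. Strain and physiological age cannot be told apart in the strain differences and interactions below. At t1 no member element was called, where 2.65% of all elements were (1% higher and 1.65% lower). At t2 there was 1 element higher in CB4856 and none lower, where 2.64% of all elements were called (1.08% higher and 1.56% lower), and at t3 none higher and 1 lower, where 3.42% were called (1.57% higher and 1.85% lower). The interaction of strain and age called no member element between t1 and t2, where 0.734% of all elements were called (0.373% higher and 0.36% lower). It called none between t2 and t3, where 0.187% were called (0.12% higher and 0.0667% lower). At an unadjusted p under 0.05 by limma, 1 member element was higher and 3 lower in CB4856 at t1. At t2 there were 6 higher and 2 lower, and at t3 4 higher and 2 lower. For the interaction there were 3 higher and 0 lower between t1 and t2, and 2 higher and 3 lower between t2 and t3. The share of all elements at that unadjusted threshold was not computed, so these counts have no comparison.

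egl-21 was the gene that was higher in CB4856 at t2. Its log2 ratio of CB4856 over N2 was 0.54, 0.12, 0.52, and 0.51 on the t2 arrays, and it was -0.34 to 0.15 at t1 and -0.16 to 0.25 at t3. All 4 arrays of t2 were positive, 3 of them close together and replicate 2 lower. The fitted difference was 1.37-fold (0.46 ± 0.11, adjusted p = 0.042). The egl-21 call was lost without t2 replicate 1, 3, or 4, and under 10 of 13 other settings, although its direction never changed. The change of the egl-21 strain difference from t1 to t2 was 0.54 ± 0.14, which did not pass (adjusted p = 0.15). The convertase egl-3 lay the same way at t2 on 1 element, with 0.32 ± 0.12 for C51E3.7a (4 of 4 arrays, adjusted p = 0.2), and at -0.19 to 0.11 on the other.

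At t3, snb-1 was lower in CB4856 on its first element. Its ratios were -1.08, -0.96, 0.44, -1.17, and -0.97, so that 4 arrays lay together and replicate 3 lay on the other side of 0. The fitted difference was -0.80 ± 0.20 (adjusted p = 0.045), and the call was lost without replicate 1, 2, 4, or 5 and under 9 of 13 other settings. The second snb-1 element had ratios of -0.12, -0.05, -0.48, -0.12, and -0.26, all negative and smaller, and was not called. On t3 replicate 3 the first element had its highest mean of the age as well, 12.26 against 11.45 to 11.54. The reference genome of C. elegans is that of N2, and a CB4856 sequence difference under a probe cannot be told apart from a difference in mRNA. The study, citing earlier work, describes the effect of such sequence differences on hybridization to these arrays as low. It was not examined here for single probes.

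**Figure D5:**
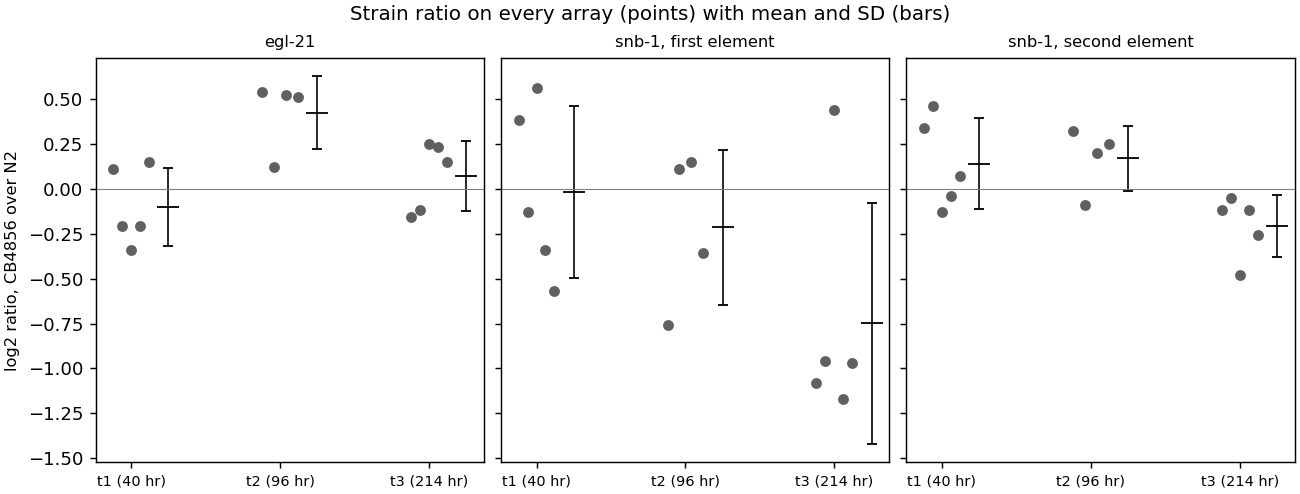
Log2 ratio of CB4856 over N2 (y axis) on every array at t1, t2, and t3 for egl-21 and for the 2 elements of snb-1, with mean and SD over arrays (bars). The egl-21 ratios are positive on all 4 arrays of t2, and 4 of the 5 t3 arrays of the first snb-1 element lie between -1.17 and -0.96.

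Of the members that were not called for strain, tdc-1 had the largest difference at t1. The ratios of its element for K01C8.3a were 0.82, -0.09, 0.82, 1.67, and 0.35, higher in CB4856 on 4 of 5 arrays (0.71 ± 0.19, adjusted p = 0.08). bas-1 was higher in CB4856 on all 5 arrays at t3, at 0.22 to 0.69 (0.44 ± 0.15, adjusted p = 0.15). The age changes that were called had the same sign in both strains for all 13, 14, and 27 elements of the 3 comparisons, with both strains measured on the same arrays.

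Genes of the same pathways that are not among the members were counted in the same way, against 18.4% of all elements that rose and 15.3% that fell from t1 to t2, and 9.42% and 10.3% from t2 to t3. These lists were not run under the other scalings. Of 44 elements of 16 genes of the G proteins and kinases that control release, 11 fell from t1 to t2 and 10 from t2 to t3, with 0 and 1 higher. kin-1, the catalytic subunit of protein kinase A, fell by 2.22 ± 0.17 from t1 to t3 (adjusted p = 2.7e-07), and kin-2, its regulatory subunit, by 1.21 ± 0.18 from t2 to t3 (adjusted p = 0.00054). On another kin-1 element the strains differed, with CB4856 lower by 0.85 ± 0.18 at t1 and by 0.99 ± 0.21 at t2 on the log2 scale (adjusted p = 0.02 at both ages). Of 60 elements of 38 other presynaptic genes, 5 rose and 2 fell from t1 to t2, and 2 rose and 5 fell from t2 to t3. The largest rise from t1 to t2 was that of aex-4, a SNAP-25-like protein of the intestine (1.33 ± 0.14, adjusted p = 9.3e-06), and the largest fall from t2 to t3 that of snt-4, a synaptotagmin (-0.78 ± 0.18, adjusted p = 0.0097).

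The lists of transmitter receptors, which also hold genes of uptake, breakdown, and cofactor synthesis, were counted first from t2 to t3. For acetylcholine receptors, uptake, and breakdown there were 0 rises and 3 falls on 30 elements, for GABA receptors and uptake 0 and 1 on 15 (an unc-49 element never above background), for glutamate 0 and 6 on 34, and for monoamine receptors, cofactor synthesis, and uptake 0 and 5 on 23. The glutamate transporter gene glt-1 fell by 1.64 ± 0.19 (adjusted p = 7.7e-05). cat-4, which codes for the cyclohydrolase that makes the cofactor of serotonin and dopamine synthesis, fell by 2 ± 0.51 (adjusted p = 0.014). From t1 to t2 there were 1 rise and 1 fall on the acetylcholine list, and 0 rises and 2 falls on the GABA list. The glutamate list had 3 rises and 2 falls, and the monoamine list 5 and 0. Of all elements 18.4% rose and 15.3% fell at that step. From t1 to t2 the glutamate-gated chloride channel glc-1 rose by 1.72 ± 0.11 and the serotonin receptor ser-4 by 1.65 ± 0.30 (adjusted p = 1.3e-07 and 0.00084). In neuropeptide processing outside the members, 0 of 22 elements rose and 2 fell from t2 to t3, where 9.42% and 10.3% of all elements did. From t1 to t2, 1 rose and 1 fell. The larger fall from t2 to t3 was that of pgal-1, which codes for the enzyme of the last amidation step (1.09 ± 0.18, adjusted p = 0.0011). unc-38, a subunit of the levamisole receptor, was the receptor gene called for strain, with CB4856 lower by 0.94 ± 0.17 at t3 on the log2 scale (adjusted p = 0.0072).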

How the data were processed

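The spot intensity values, as deposited by the authors, are each spot's mean and its local background (median), per dye, from ScanArray Express (per the file headers), not background corrected or normalized. A second deposited table holds the authors' log2 ratios, normalized with limma (per the processing notes), N2 over CB4856 by comparison with the scanner values (r = 0.91 to 0.99 per array), used as 1 alternative. The meaning of the deposited flag codes is not given in the sources used here. Elements were named through the platform table (17447 by symbol) and by CDS name through RefSeq (3968), and 1075 kept the array's name.

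In R 4.3.3 with limma 3.58.1 and statmod 1.5.0, intensities were background corrected (normexp, offset 50), loess normalized within arrays, and quantile normalized between arrays. limma models over all 14 arrays gave strain differences and interactions (log2 ratio, with a dye term) and age changes (mean log2 of both dyes). A call is an adjusted p (Benjamini-Hochberg, over all 22490 worm elements) under 0.05. Errors are SE. An element above background in no channel of one group has only a bound: brighter mean over the dimmer group's detection limit. The brighter mean takes in channels at background too, so the bound is weak where few channels were above it. The methods state 6 replicates per age, and the arrays analysed here were 5, 4, and 5. Neither labels nor methods say whether dye-swapped arrays of one number share RNA extracts, so arrays were counted singly and p-values measure the spread between these arrays, which may be technical. The number of arrays limits the precision. The models were tested on simulated data.

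Members and gene lists were chosen with earlier results of these data known. Values are given for the called members, for members heading a paragraph, and for members whose elements disagree; from the other lists only the called element with the largest change in a direction is named. No sequence is shown. Alternatives were the background correction, the scaling between arrays, filters on dim elements and flags, fits with fewer arrays, the scan session or the replicate number as a block, averaging of arrays with one number, the authors' table, no dye term, the linear models of the methods, another threshold, and each array left out. The median-only scaling and the removal of number 1 at t1 were added after the data had been seen.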

Additional observations from a re-analysis of the deposited data

Results flagged for a closer look

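For called member elements above background in some channel, the highest and the lowest array of each age were compared with the rest (84 groups of 4 or 5 arrays). 6 had a gap to the nearest array that was large against the whole range, where chance gives about 1 in 20. In 2 of them the array bears on a strain call: the egl-21 ratio of CB4856 over N2 was 0.12 on t2 replicate 2 against 0.51 to 0.54 on the others, and the ratio of the first snb-1 element was 0.44 on t3 replicate 3 against -1.17 to -0.96. On the same array the mean of that element was 12.26 against 11.45 to 11.54, and unc-64 (F56A8.7b) was at 8.88 against 8.17 to 8.34. ric-4 was at 8.49 on t2 replicate 1 against 7.88 to 7.94, and ida-1 at 10.4 on t1 replicate 3 against 11.85 to 12.41.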

How the results depend on the processing

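Counts of called members from t1 to t2, t2 to t3, and t1 to t3 were 13, 14, and 27. They were 5, 7, and 18 without scaling between arrays (2 higher and 3 lower, 7 and 0, 12 and 6), 8, 14, and 23 with array medians alone set equal (5 and 3, 1 and 13, 8 and 15), and 5, 5, and 9 on spots with flag code 3. Higher calls among all elements made up 54.6%, 47.7%, and 54.9%, then 39%, 95.5%, and 80.3% without scaling, and 67%, 56.8%, and 67.5% with equal medians, and the median of all elements moved to -0.05, 0.29, and 0.11 without scaling and to 0.2, -0.15, and -0.09 with equal medians. With arrays of one number averaged, 10, 8, and 22 were called, losing rab-3 (C18A3.6b), egl-19, and ida-1 from t1 to t2, unc-64, rab-3 (C18A3.6b), unc-25 (Y37D8A.23a), egl-3 (C51E3.7b), egl-21, and ida-1 from t2 to t3, and unc-64, slo-1 (Y51A2D.19a), unc-26 (JC8.10a), and 2 elements never above background from t1 to t3. Counts ranged from 11 to 15, 12 to 15, and 25 to 29 when each array was left out. On physiological age, the linear model of the methods was refitted with its own thresholds. The refit called 0 member elements from t1 to t2 and 0 from t2 to t3, and 1 for the interaction in each of developing and aging worms. With the interaction in the model, the age term was the slope in N2 alone. These age counts are therefore not like those above, which use both strains. Few of all 22490 elements were called by that refit either, 245 and 169 for age and 647 and 297 for the interaction. The low member counts of the refit are therefore not particular to the members. With these thresholds the study itself reports many more transcripts for age and many more genes for the interaction, in developing and in aging worms. The counts of the refit thus do not stand for those of the study, and the reason for the gap was not tested. Without scaling, unc-64 (F56A8.7b) changed by 0.01 from t2 to t3 and 0.18 from t1 to t3, and snt-1 (F31E8.2a) by 0.02 from t2 to t3. Within scan session 2, rab-3 (C18A3.6b) changed by 0.05 and ric-4 by -0.04 from t1 to t2. Apart from this rab-3 change, the called members kept their direction in each session that held both ages (for t1 to t3, the 24 elements above background somewhere).

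For strain, 0, 1, and 1 elements were called at t1, t2, and t3. At t1 the count was 2 on spots with flag code 3, 1 at an adjusted p under 0.1 (tdc-1), and 0 to 1 with an array left out. At t2 it was 0 without scaling, with dim elements left out, on spots with flag code 3, with arrays of the age alone, with scan session as a block, with arrays of one number averaged, in the authors' table, and in the linear model of the methods after Benjamini-Hochberg adjustment, and 0 to 1 with an array left out. At t3 it was 0 without background correction, without scaling, on flag code 3, with arrays of the age alone, with arrays of one number averaged, without the dye term, in the authors' table, and in the linear model of the methods with and without adjustment, and 0 to 1 with an array left out. With the replicate block, 0, 0, and 1 elements were called for strain, 13, 14, and 27 for age, and 0 for each interaction; deviations of same-numbered arrays correlated at -0.06 to 0.32 for mean log2 intensity (7 of 13 pairs over 0.1) and at -0.2 to 0.37 for the log2 ratio (6 of 13), in the latter at 0.31 to 0.35 for the 4 pairs of t2 with t3. The cause of these changes was not tested. Of the 74 member elements, 21 were above background in some but fewer than 14 channels and 24 in none, which limits what can be measured for them.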
